A study of Homo sapiens with 12 samples.

Results

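The proteasome genes examined here were the 49 protein-coding genes, of 57815 genes in the deposited files, whose symbols are PSMA, PSMB, PSMC, PSMD, PSME or PSMG with a number, together with PSMF1, POMP and ADRM1. PSMB3, a structural beta ring gene that the rule also names, was not analysed because its identifier in the annotation used was not among those of the files. They were compared between control siRNA and NRF2 siRNA in the human non-small cell lung cancer lines A549, H2023 and H460. All 3 lines are labelled as KEAP1 mutation positive, so control cells carry the mutation as well. KEAP1 is the negative regulator of NRF2, a transcription factor encoded by NFE2L2. H460 is a large cell carcinoma line by its label, and the other lines come from lung adenocarcinoma. Cells were harvested 48 h after transfection, with 2 libraries in each of the 6 groups. In each line 1 NRF2 siRNA library was made with siRNA number 28 and the other with siRNA number 30, so the spread within an NRF2 siRNA group includes the difference between the siRNAs. Per the study's methods the control libraries were biological duplicates, and the libraries of both siRNAs were treated as duplicates of the knockdown. The p-values measure the spread between these libraries, and that between the knockdown libraries includes the difference between siRNAs. A549 RNA was depleted of rRNA and the other lines were polyA-selected, and A549 was grown in high and the others in low glucose medium. Levels of A549 were therefore not compared with those of the other lines. Since each library is bulk RNA from a culture, fewer expressing cells and less RNA per cell cannot be told apart.

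The proteasome is the protease that degrades ubiquitin-tagged proteins in every cell. Its 20S core is a stack of outer alpha rings, which gate the entry, and inner beta rings, which hold the proteolytic sites of PSMB5, PSMB6 and PSMB7. The immune subunits PSMB8, PSMB9 and PSMB10 take the place of those catalytic subunits in the immunoproteasome, which is induced by interferon gamma and shapes peptides for antigen presentation. The 19S regulatory particle has a base, with a ring of ATPases (PSMC genes) and ubiquitin receptors, and a lid, which removes ubiquitin. POMP and the PSMG chaperones assemble the core, and PSME1 and PSME2 form the alternative PA28 activator. Transcription of the subunit genes after proteasome inhibition is known to depend on NRF1 (NFE2L1), a relative of NRF2, and NRF2 itself has been linked to induction of core subunits by oxidants.

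In the files the values are FPKM, fragments per kilobase of transcript scaled to the mapped fragments of a library, as estimated by the authors. The FPKM of all genes summed to between 638815 and 1159274 per library, and 12732 to 13909 genes were at 1 FPKM or more. NFE2L2 was at 30.9 to 144 FPKM in the control libraries and at 5.31 to 12.2 FPKM with NRF2 siRNA, without overlap in any line. Epithelial markers were found in all lines (6 of 6 at a mean of 1 FPKM or more in A549 and H2023, 4 of 6 in H460), whereas of 5 lung lineage markers 1, 1 and 0 reached 1 FPKM. Endothelial markers were near 0, and 2 of 5 leukocyte markers were at 1 FPKM or more in each line, with a summed level between 14.9 and 60.8 FPKM over all libraries. Mitochondrially encoded transcripts took 8.56% and 13.1% of the FPKM sum in the H460 control libraries and 20.8% and 26.0% in the H460 NRF2 siRNA libraries. In H2023 these shares were 11.97% and 18.1% against 17.3% and 22.8%, and in A549 they were between 0.892% and 1.56%. Where FPKM is scaled to all mapped fragments, a larger mitochondrial share lowers the values of nuclear genes. The scaling behind these files is uncertain. The H460 and H2023 values below are therefore also given without mitochondrial transcripts. The part of the mitochondrial share in these values was not tested.

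Of the 49 members, 47 reached 1 FPKM in at least 2 libraries of every line and were tested. The exceptions were PSMA8, a testis-specific alpha subunit, at no more than 0.209 FPKM in any library, and PSMB11, the thymus-specific beta subunit, at no more than 0.0161 FPKM. Summed over the members, FPKM in A549 was 4384 and 3971 in the control libraries against 3951 and 3611 with siRNAs 28 and 30. The sum in H2023 was 4877 and 4571 against 4421 and 4565. In H460 it was 6178 and 5842 against 4590 and 4263. Neither NRF2 siRNA library reached a control library of its line, by a margin that was narrow in A549 and H2023. The log2 ratio of the mean sums in these lines was -0.14, -0.07 and -0.44, and without mitochondrial transcripts it was -0.14, 0.018 and -0.22. In A549 it was -0.07 without control library 0 and -0.08 without the siRNA 30 library. Without A549 control library 1 or the A549 siRNA 28 library it was -0.21. In H2023 it was -0.025 without control library 0 and -0.12 without control library 1.

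Most members had lower values after NRF2 knockdown, and the shift was largest in H460. The median log2 fold change of the 47 members, on the log2(FPKM + 1) scale, was -0.13, -0.14 and -0.41 in A549, H2023 and H460, which is 0.913, 0.908 and 0.755 as a fold of control. Over all genes tested the medians were 0.02, 0.02 and -0.01. Among tested genes with a mean of at least 10 FPKM, a comparison chosen after the data were seen because most members are abundant, they were -0.0064, -0.0051 and -0.14. The members below 0 numbered 38 in A549, 29 in H2023 and 44 in H460. Without mitochondrial transcripts the H460 median was -0.19 and 35 members were below 0, while the median of all genes moved to 0.19. The H2023 median was then -0.059 with 25 members below 0, and that of all genes moved to 0.0998. The H2023 median was also nearer to 0 without the siRNA 28 library (-0.075), the siRNA 30 library (-0.049) or control library 0 (-0.074), and that of A549 was -0.21 without the siRNA 28 library and -0.22 without control library 1. The distance of the members' median from that of all genes was -0.40 in H460 by the values as deposited and -0.38 without mitochondrial transcripts, and -0.16 in H2023 by both.

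**Figure D1:**
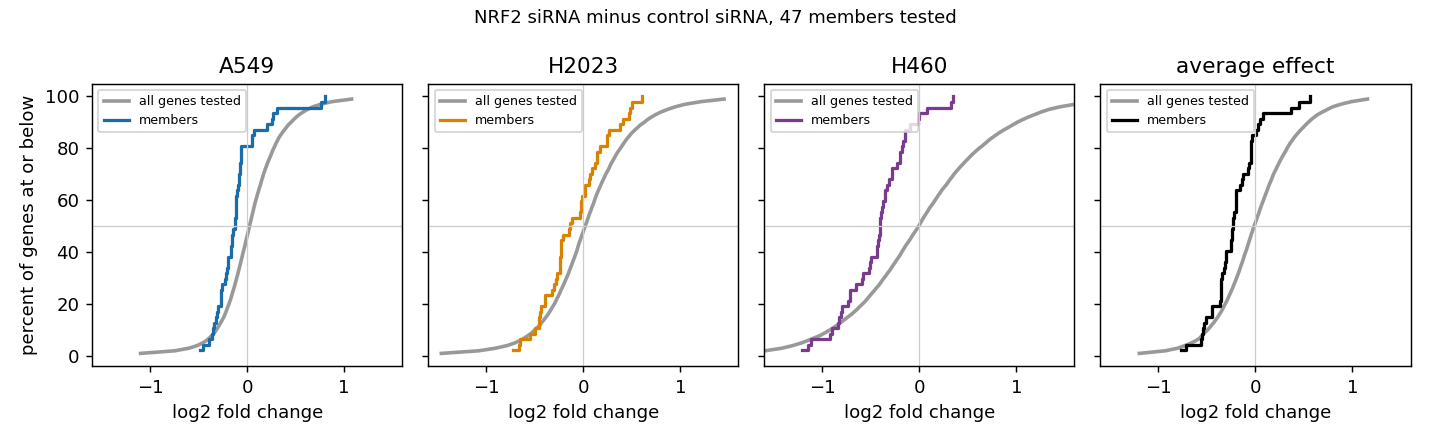
Cumulative percent of genes (vertical axis) at or below each log2 fold change of FPKM + 1 (horizontal axis, NRF2 siRNA minus control siRNA) in each line and for the average effect, for the 47 members tested (coloured or black steps) and for all genes tested (grey, percentiles 1 to 99). The members' curves lie left of the grey curves around the middle, with medians of -0.13, -0.14, -0.41 and -0.23.

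Within single lines few members passed the threshold of an adjusted p of 0.05 (limma, Benjamini-Hochberg over all genes tested). In A549 0 of 47 members were called lower and 0 higher, where 0.554% of all genes were called lower and 0.122% higher. At an unadjusted p under 0.05, 3 members were lower and 2 higher in A549, as were 694 and 1150 of all 13898 genes. In H2023 the members called were likewise 0 and 0, with 0.583% and 0.327% of all genes called, and 6 members were lower and 3 higher at an unadjusted p under 0.05, as were 939 and 1439 of all 14059 genes. In H460 4 members (8.51%) were called lower and 0 higher, where 6.86% of all genes were called lower and 7.12% higher, so the share of members called lower was near that of all genes. At an unadjusted p under 0.05, 14 members were lower and 0 higher in H460, as were 2248 and 2290 of all 13446 genes. Of 7408 genes with a mean of at least 10 FPKM, 1684 were lower. The 4 members called lower in H460 were PSMG1, PSMD11, PSMD7 and PSMA5. Their calls were lost when either H460 control library was left out (0 members called, with 0 and 5 of all genes called lower or higher). Without the H460 siRNA 28 or 30 library 13 and 6 members were called lower, where 13.7% and 9.92% of all genes were. Without that of H2023 4 and 3 members were called lower in H2023, where 5.91% and 4.78% of all genes were. In each fit without 1 library of a single line the spread comes from the pair left in the other group, with 1 residual degree of freedom, and the lone library is assumed to vary like that pair. Without mitochondrial transcripts the calls of PSMG1 and PSMD11 were kept and those of PSMD7 and PSMA5 were lost.

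Groups that do not overlap, with both NRF2 siRNA libraries below both control libraries, were counted as a description. In A549 25 members lay lower without overlap and 4 higher, and 20.5% and 25.2% of all genes did. In H2023 the counts were 17 and 14, against 22.0% and 27.0% of all genes. In H460 they were 35 and 1, against 31.6% and 31.1% of all genes. Of the 47 members, 10 were lower without overlap in all 3 lines, where 7.2% of all genes were. These were PSMA1, PSMA3, PSMA5, PSMB6, PSMB7, PSMC5, PSMD7, PSMD11, PSMG4 and POMP. PSME1 was higher without overlap in all 3 lines, where 8.18% of all genes were. By sign alone 26 members were lower in every line, where 26.0% of all genes were, and PSME1, PSMB8 and PSMB9 were higher in every line, where 25.5% of all genes were.

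The effect averaged over the lines, from 1 fit of all 12 libraries, was lower for 14 of 47 members (29.8%) and higher for 3 (6.38%). Among all 11571 genes tested 14.5% were lower and 15.2% higher, and among those with a mean of at least 10 FPKM 17.99% were lower. The genes that fell were PSMA1, PSMA3, PSMA4, PSMA5, PSMB7, PSMC1, PSMC5, PSMD7, PSMD11, PSMD12, PSMG1, PSMG2, PSMG4 and POMP. Those that rose were PSMB8, PSMB9 and PSME1. This fit assumes 1 spread for all lines, although the median SD between replicates on the log2 scale was 0.150, 0.199 and 0.245 in A549, H2023 and H460. With a weight per line 13 members were lower and 3 higher, where 14.5% and 15.1% of all genes were. Without mitochondrial transcripts, which moved the median of all genes from -0.01 to 0.08, 7 were lower (PSMA1, PSMA3, PSMA4, PSMA5, PSMB7, PSMD7 and PSMD11) and the same 3 were higher, where 9.51% of all genes were lower and 20.2% higher. The number called lower was 5 without A549 control library 0, 5 without H2023 control library 0, 6 without the A549 siRNA 30 library and 7 without H460 control library 0, where 8.96%, 9.96%, 10.45% and 10.6% of all genes were lower. The number called higher was 0 without the A549 siRNA 28 library, A549 control library 1 or H2023 control library 1, where 10.7%, 9.94% and 11.5% of all genes were higher. It was 1 without the A549 or H460 siRNA 30 library or H2023 or H460 control library 0, where between 11.6% and 15.1% of all genes were.

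**Figure D2:**
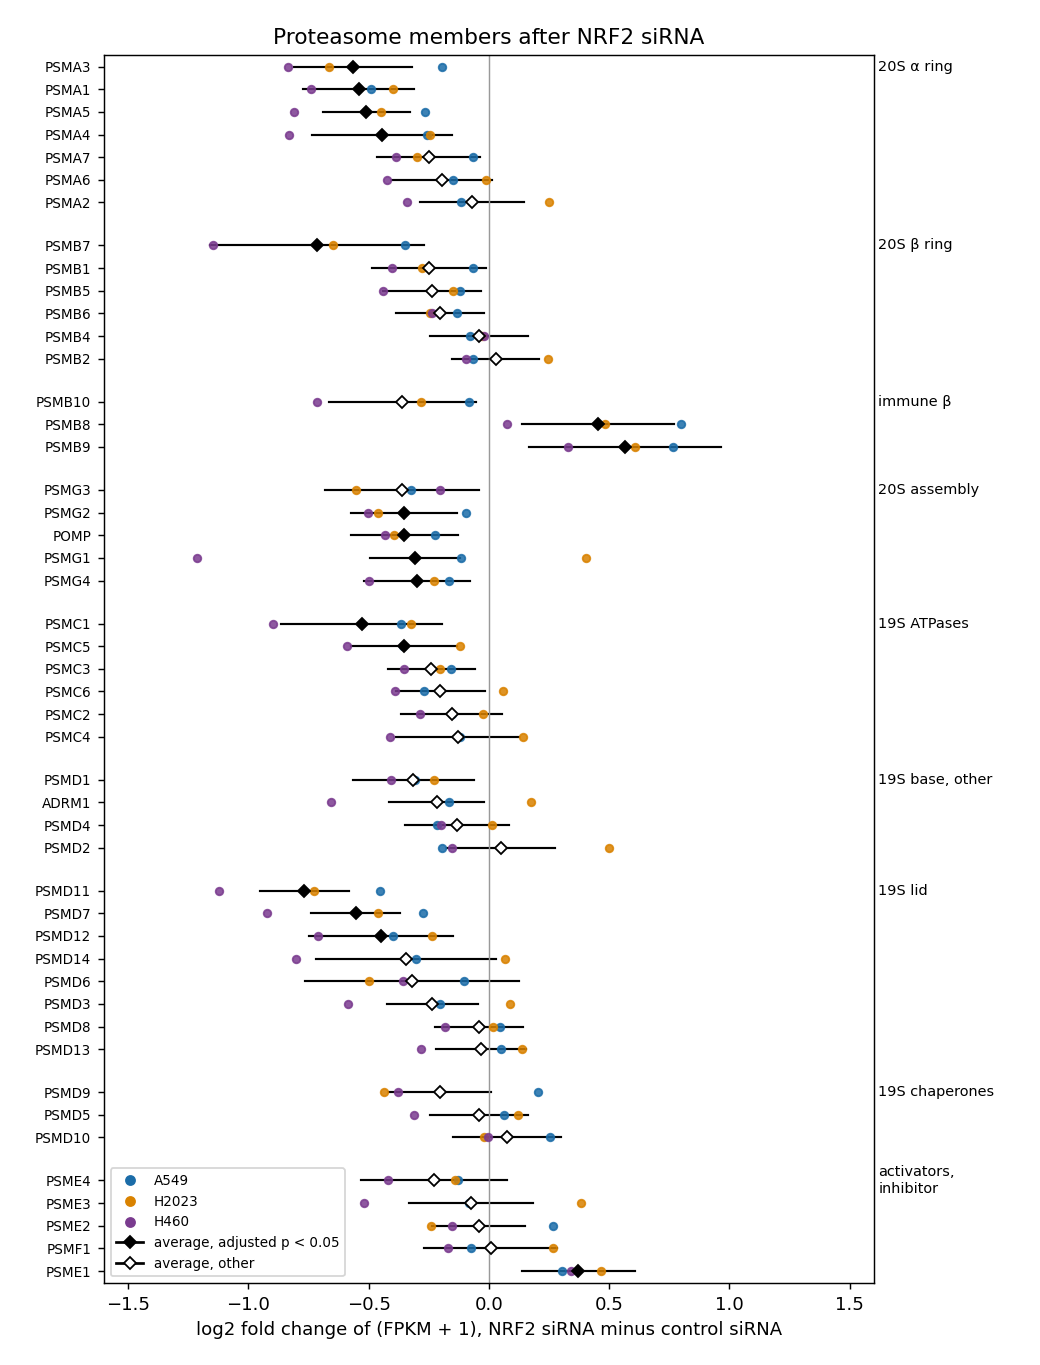
Log2 fold change of FPKM + 1 (horizontal axis, NRF2 siRNA minus control siRNA) of the 47 members tested, grouped by subcomplex, in A549, H2023 and H460 (coloured points) and averaged over the lines (diamonds with 95% confidence intervals from limma, filled where the adjusted p was under 0.05). The alpha ring, 20S assembly factors and ATPases lie mostly left of 0, whereas PSMB8, PSMB9 and PSME1 lie right of 0 in each line.

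The promoter sequences of the members were read from RefSeq windows (GRCh38.p14) that run from 250 bases before to 50 bases after a gene's start, which were present for 43 of the 49 members. The core of the antioxidant response element (ARE), the site bound by NRF2 with small MAF proteins and also by NRF1, was searched as TGACNNNGC on both strands. Its first letters are also those of AP-1 sites. It was found in 15 of 43 members (34.9%), in 19.8% of 8981 tested genes with a window and in 16.1% of all 27305 genes with one. The average effect was called lower for 5 and higher for 2 of the 15 members with a match, and lower for 8 and higher for 1 of the 26 tested members without one. The median average effect was -0.23 and -0.22 in these groups. A match of letters is not a binding site, and a window without one says nothing about other sites. The stretches below are shown because they belong to members whose average effect was called, with the match, on the gene's strand or its complement, in capitals. The first 5 belong to genes that fell and the last 2 to genes that rose.
PSMA4 (chr15:78540650-78540678, plus strand): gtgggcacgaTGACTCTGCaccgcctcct
PSMC5 (chr17:63827654-63827682, plus strand): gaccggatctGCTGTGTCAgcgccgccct
PSMD12 (chr17:67366724-67366752, minus strand): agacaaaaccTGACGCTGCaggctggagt
PSMG1 (chr21:39183616-39183644, minus strand): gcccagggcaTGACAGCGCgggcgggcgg
PSMG2 (chr18:12658689-12658717, plus strand): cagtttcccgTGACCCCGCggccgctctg
PSMB9 (chr6:32854034-32854062, plus strand): gggcggggctGCCTCGTCActtgtctcgg
PSME1 (chr14:24136098-24136126, plus strand): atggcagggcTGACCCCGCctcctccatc

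Among the alpha ring genes, 4 of 7 tested fell on average, where 14.5% of all genes did. All 7 had an average effect below 0, as did 51.4% of all genes and 55.6% of those with a mean of at least 10 FPKM. The median of the ring was -0.44 on average and -0.20, -0.30 and -0.74 in A549, H2023 and H460. PSMA5 (chromosome 1, 109941664 to 109969070, GRCh37, minus strand) was at 85.2 and 77.4 FPKM in A549 controls against 72.1 and 62.9 FPKM with siRNAs 28 and 30. In H2023 the values were 109 and 102 against 79.4 and 75.1 FPKM. In H460 they were 92.3 and 95.2 against 55.6 and 50.4 FPKM. PSMA5 was thus below control in every NRF2 siRNA library, and the log2 fold change in A549, H2023 and H460 was -0.27 ± 0.14, -0.45 ± 0.15 and -0.81 ± 0.21 (SE). Its adjusted p was 0.499, 0.233 and 0.0488 in these lines and 0.00176 for the average effect of -0.51 ± 0.08 (SE). The H460 call was lost without the siRNA 30 library or control library 0 or 1 (adjusted p = 0.0502, 0.291 and 0.277).

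PSMA1 was at 202 and 182 FPKM in A549 controls and at 144 and 129 FPKM with siRNAs 28 and 30. The corresponding values were 154 and 148 against 95.6 and 137 FPKM in H2023 and 189 and 197 against 110 and 121 FPKM in H460. Here too no NRF2 siRNA library reached a control library of its line. The average effect of PSMA1 was -0.54 ± 0.10 (SE, adjusted p = 0.00392). PSMA3 had an average effect of -0.57 ± 0.11 (SE, adjusted p = 0.00437), with -0.20, -0.67 and -0.84 in the single lines. PSMA1, PSMA3 and PSMA5 kept the call of the average effect when each of the 12 libraries was left out in turn. PSMA4 averaged -0.44 ± 0.13 (SE, adjusted p = 0.0276) and lost its call without any 1 of 6 libraries, namely both A549 siRNA libraries, the H2023 siRNA 30 library and control library 0 of A549, H2023 or H460 (adjusted p between 0.0537 and 0.0807). PSMA6, PSMA7 and PSMA2 had average effects of -0.20, -0.25 and -0.07 that were not called, and PSMA2 was higher in H2023 by 0.25. The alpha genes made up 25.1% and 24.4% of the members' summed FPKM in A549 controls and 23.5% and 22.8% with siRNAs 28 and 30. In H2023 these shares were 17.8% and 17.4% against 15.7% and 14.8%, and in H460 19.6% and 19.9% against 18.2% and 16.8%. Such a share is taken within a library and does not depend on the scaling between libraries. It was lower in every NRF2 siRNA library than in the controls of the same line.

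**Figure D3:**
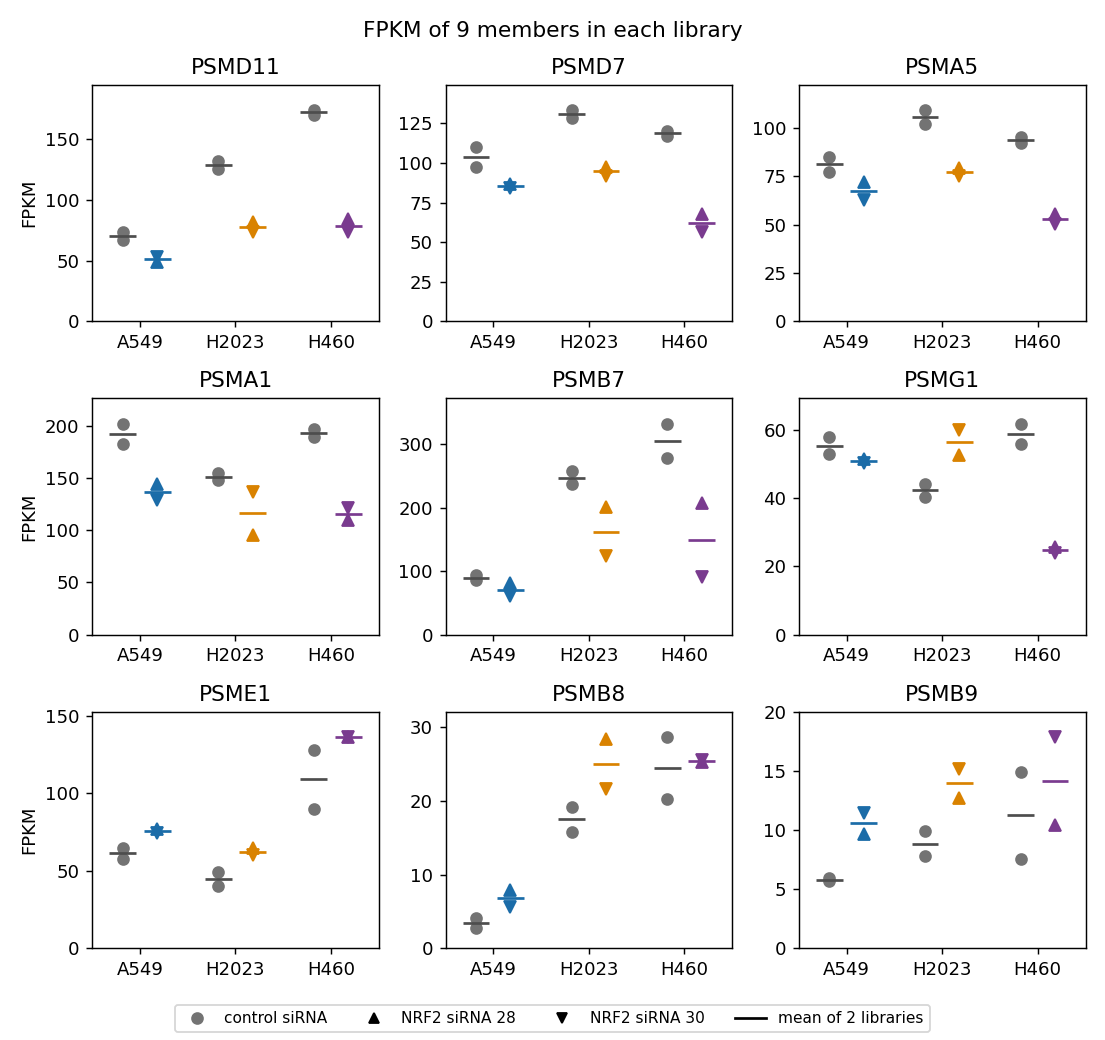
FPKM (vertical axis, from 0) of 9 members in each library, by cell line. Grey circles are the control libraries, upward and downward triangles are the NRF2 siRNA 28 and 30 libraries, and short lines are the means of 2 libraries. PSMD11, PSMD7, PSMA5, PSMA1 and PSMB7 were below control in all lines, PSMG1 was above control in H2023, and PSME1 was above control in all lines.

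Of the 6 constitutive beta ring genes tested, only PSMB7 fell on average (16.7%), where 14.5% of all genes did. PSMB7 carries the trypsin-like activity. It was at 93.9 and 85.7 FPKM in A549 controls against 81.0 and 61.0 FPKM with siRNAs 28 and 30, at 257 and 238 against 201 and 124 FPKM in H2023, and at 333 and 279 against 208 and 90.3 FPKM in H460. Every NRF2 siRNA library was below control, and siRNA 30 gave the lower value in each line. The average effect was -0.71 ± 0.20 (SE, adjusted p = 0.0233). That call was lost without control library 0 of A549, H2023 or H460, A549 control library 1 or the siRNA 30 library of A549 or H2023 (adjusted p between 0.0510 and 0.0648). PSMB7 has 1 named pseudogene, and reads of near-identical copies can be split between them.

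PSMB5, the chymotrypsin-like subunit and main target of bortezomib, was at 96.6 and 112 FPKM in A549 controls against 106 and 85.9 FPKM. In H2023 it was at 91.4 and 84.7 against 73.4 and 85.6 FPKM, and in H460 at 173 and 165 against 121 and 127 FPKM. Its groups overlapped in A549 and H2023 and not in H460, and the average effect of -0.24 ± 0.09 (SE) had an adjusted p of 0.0781. PSMB6, the caspase-like subunit, was at 131 and 142 against 130 and 119 FPKM in A549, 153 and 139 against 117 and 129 FPKM in H2023, and 194 and 186 against 153 and 170 FPKM in H460. The groups of PSMB6 did not overlap in any line, by a small margin in A549, and the average effect was -0.20 ± 0.08 (SE, adjusted p = 0.0867). PSMB1, PSMB2 and PSMB4 are structural subunits of the ring, with average effects of -0.25, 0.03 and -0.04 that were not called.

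The immune subunits PSMB8 and PSMB9 rose on average, and PSMB10 was not called. PSMB8 was at 4.15 and 2.78 FPKM in A549 controls against 7.90 and 5.63 FPKM with siRNAs 28 and 30. In H2023 it was at 19.2 and 15.8 against 28.4 and 21.7 FPKM. In H460 it was at 20.2 and 28.7 against 25.3 and 25.5 FPKM. The NRF2 siRNA libraries were above control in A549 and H2023, whereas in H460 they lay between the control libraries. PSMB8 rose on average by 0.45 ± 0.14 (SE, adjusted p = 0.0363), with 0.80, 0.48 and 0.07 in A549, H2023 and H460. PSMB9 was at 5.89 and 5.66 FPKM in A549 controls against 9.66 and 11.4 FPKM, at 9.93 and 7.75 against 12.7 and 15.2 FPKM in H2023, and at 7.55 and 14.9 against 10.4 and 17.9 FPKM in H460. It too was higher without overlap in A549 and H2023 and overlapped in H460, and it rose on average by 0.57 ± 0.18 (SE, adjusted p = 0.0374). The effects on PSMB8 and PSMB9 were not called different between lines (adjusted p = 0.420 and 0.811). By unadjusted p, PSMB8 and PSMB9 in A549 (0.0166 and 0.00337) and PSMB9 in H2023 (0.0362) were under 0.05.

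With no filter on low values neither PSMB8 nor PSMB9 was called on average, where 5.46% of all genes were called higher. Both calls also depended on single libraries. That of PSMB8 was lost without the siRNA 28 library of A549 or H2023, the H460 siRNA 30 library, control library 1 of A549 or H2023, or control library 0 of H2023 or H460, with an adjusted p of up to 0.108. That of PSMB9 was kept without the H2023 or H460 siRNA 28 library or H460 control library 1 and lost without any 1 of the other 9, with an adjusted p of up to 0.0980. The annotated bounds of PSMB8 (chromosome 6, 32808494 to 32812456, minus strand, GRCh37) and PSMB9 (32811913 to 32827628, plus strand) overlap. The library kit keeps strand, but whether counting used it is not given in the sources used here. PSMB10, which replaces PSMB7, was at 23.1 and 20.5 against 23.0 and 18.3 FPKM in A549, 19.5 and 14.4 against 17.0 and 10.9 FPKM in H2023, and 33.3 and 36.7 against 18.6 and 23.5 FPKM in H460. It did not share the direction of PSMB8 and PSMB9, and its average effect was -0.36 ± 0.14 (SE, adjusted p = 0.0734).

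Ratios of an immune subunit to the subunit it replaces were taken within each library, as a description. PSMB8 per PSMB5 was 0.0429 and 0.0248 in A549 controls against 0.0743 and 0.0655 with siRNAs 28 and 30. It was 0.210 and 0.187 against 0.387 and 0.253 in H2023, and 0.117 and 0.174 against 0.209 and 0.201 in H460. This ratio was higher in every NRF2 siRNA library than in the controls of its line. PSMB9 per PSMB6 was 0.0448 and 0.0399 against 0.0742 and 0.0959 in A549, 0.0648 and 0.0557 against 0.109 and 0.117 in H2023, and 0.0389 and 0.0798 against 0.0678 and 0.105 in H460. For that pair the groups overlapped in H460. PSMB10 per PSMB7 was higher without overlap in A549 (0.246 and 0.240 against 0.284 and 0.2999) and H2023 (0.0758 and 0.0604 against 0.0846 and 0.0879). In H460 it was 0.09999 and 0.132 against 0.0892 with siRNA 28 and 0.260 with siRNA 30.

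**Figure D4:**
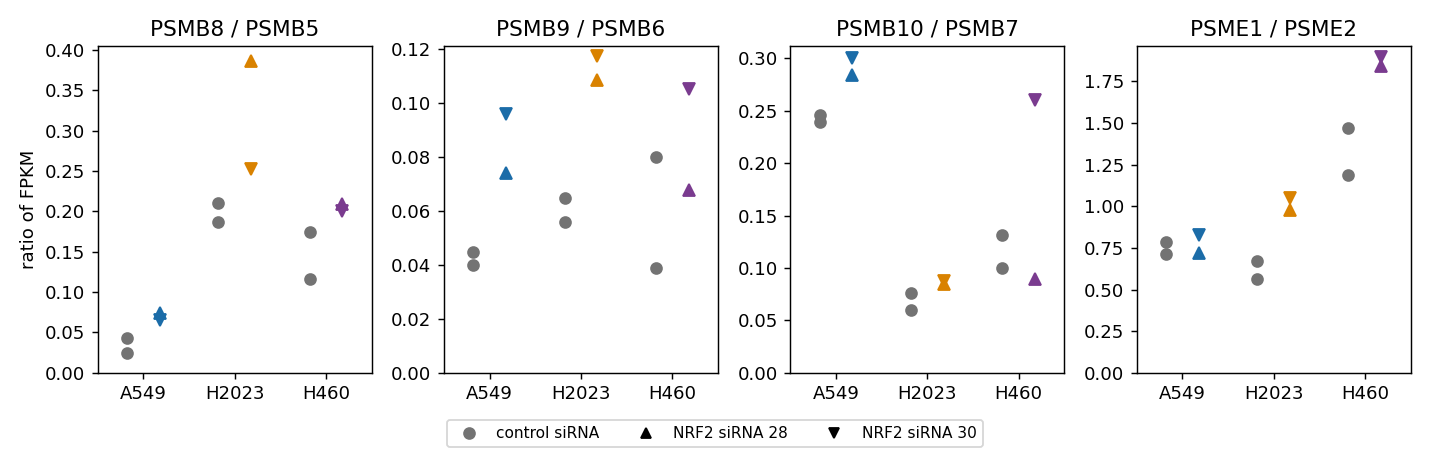
Ratio of FPKM (vertical axis, from 0) of each immune catalytic subunit to the constitutive subunit it replaces, and of PSME1 to PSME2, in each library by cell line. Grey circles are control libraries, and upward and downward triangles are the NRF2 siRNA 28 and 30 libraries. PSMB8 per PSMB5 was above control in all 3 lines and the other ratios in 2 of 3 lines.

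The core's assembly factors had 4 of 5 genes lower on average by the values as deposited, where 14.5% of all genes were lower. Without mitochondrial transcripts 0 of 5 were, where 9.51% of all genes were. By median-of-ratios scaling of the libraries POMP, PSMG1 and PSMG2 kept the call and PSMG4 lost it. POMP, which guides beta ring assembly and is the first substrate of the finished core, was at 47.4 and 46.4 FPKM in A549 controls against 43.3 and 36.9 FPKM. In H2023 it was at 29.5 and 21.8 against 19.7 and 18.4 FPKM, and in H460 at 31.6 and 31.7 against 22.0 and 24.4 FPKM. No line overlapped, and POMP fell on average by 0.35 on the log2 scale (-0.35 ± 0.10, SE, adjusted p = 0.0244). The PSMG proteins are chaperones of alpha ring assembly, PSMG1 with PSMG2 and PSMG3 with PSMG4. PSMG2 was at 36.999 and 33.0 against 34.5 and 30.9 FPKM in A549, 16.2 and 13.9 against 10.3 and 10.98 FPKM in H2023, and 14.7 and 15.5 against 9.16 and 11.7 FPKM in H460. It overlapped in A549 alone and fell on average by 0.35 (-0.35 ± 0.10, SE, adjusted p = 0.0232). PSMG4 fell by 0.30 (adjusted p = 0.0439), and PSMG3 had -0.36 (adjusted p = 0.0850). The calls depended on single libraries. Those of POMP and PSMG2 were lost without control library 0 of A549 or H2023 or the A549 siRNA 30 library, that of POMP also without A549 control library 1 or H460 control library 0, and that of PSMG2 also without H460 control library 1 (adjusted p up to 0.0720 and 0.0740). PSMG4 kept its call without the H2023 or H460 siRNA 30 library and lost it without any 1 of the other 10.

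PSMG1 was the only member whose effect differed between the lines (F test in limma, adjusted p = 0.0192), where 2.51% of all genes did. It was at 57.8 and 53.0 FPKM in A549 controls against 51.6 and 50.4 FPKM with siRNAs 28 and 30. In H2023 it was at 44.2 and 40.4 against 52.8 and 60.0 FPKM, and in H460 at 61.9 and 55.8 against 25.7 and 24.0 FPKM. PSMG1 was thus lower in H460, where it fell by 1.21 (-1.21 ± 0.21, SE, adjusted p = 0.0236), slightly lower in A549 (-0.11 ± 0.13, SE) and higher in H2023 (0.40 ± 0.16, SE, adjusted p = 0.297), without overlap in each line. Its average effect of -0.31 ± 0.08 (SE, adjusted p = 0.0203) combines these directions. In H460 the call was lost without control library 0 or 1 (adjusted p = 0.216 and 0.152). That of the average was lost without the A549 siRNA 30 library or control library 0 of A549, H2023 or H460 (adjusted p between 0.0519 and 0.0652). The difference between lines had an adjusted p of 0.0634 and 0.0595 without A549 control library 0 or 1, 0.0543 and 0.0616 without H2023 control library 0 or 1, and 0.0903 without H460 control library 0. It remained under 0.05 when any other library was left out.

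The ATPases of the 19S base unfold substrates and open the core. By the values as deposited 2 of 6 fell on average, where 14.5% of all genes did. Without mitochondrial transcripts 0 of 6 fell, where 9.51% of all genes did. By median-of-ratios scaling the calls of both, PSMC1 and PSMC5, were kept. All 6 had an average effect below 0 as deposited, as did 51.4% of all genes. PSMC1 was at 114 and 95.97 FPKM in A549 controls against 70.7 and 92.7 FPKM with siRNAs 28 and 30. The values were 115 and 121 against 72.7 and 122 FPKM in H2023 and 224 and 214 against 95.8 and 143 FPKM in H460. The siRNA 28 library was the lower one in each line, and with siRNA 30 the H2023 value was at the level of the controls. PSMC1 averaged -0.53 ± 0.15 (SE, adjusted p = 0.0248), a call that was lost without the A549 siRNA 28 library, control library 0 of A549 or H460 or either H2023 control library (adjusted p between 0.0534 and 0.0718). It has 13 named pseudogenes, more than any other member, so its values are uncertain where reads are split between copies. PSMC5 was at 41.1 and 32.8 against 30.8 and 26.3 FPKM in A549, 285 and 280 against 252 and 268 FPKM in H2023, and 296 and 299 against 224 and 175 FPKM in H460. It was lower without overlap in each line, and its average effect was -0.35 ± 0.10 (SE, adjusted p = 0.0228). That call was lost without A549 control library 0, the A549 siRNA 30 library or either H2023 control library (adjusted p between 0.0538 and 0.0733). PSMC3 lay just outside the threshold (-0.24 ± 0.08, SE, adjusted p = 0.0501), and PSMC2, PSMC4 and PSMC6 had average effects between -0.20 and -0.13.

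None of the 4 other base genes was called on average. PSMD1, a large scaffold subunit, was at 71.6 and 63.1 against 59.1 and 49.5 FPKM in A549, 64.2 and 67.1 against 66.3 and 47.2 FPKM in H2023, and 80.4 and 78.5 against 67.8 and 52.6 FPKM in H460. It overlapped in H2023, and its average effect was -0.31 ± 0.11 (SE, adjusted p = 0.0605). ADRM1, a ubiquitin receptor, was at 141 and 122 against 117 and 115 FPKM in A549, 124 and 121 against 125 and 152 FPKM in H2023, and 187 and 214 against 125 and 128 FPKM in H460. It was above control in H2023 and below it in the other lines, with an average of -0.22 ± 0.09 (SE, adjusted p = 0.0919). PSMD2, the other large scaffold subunit, stood apart in H2023, where it was at 270 and 282 FPKM in controls against 362 and 421 FPKM. Its log2 fold change there was 0.50 ± 0.16 (SE, adjusted p = 0.228), and it was -0.20 in A549 and -0.15 in H460. The test of a difference between lines gave an unadjusted p of 0.0306 and an adjusted p of 0.184 for PSMD2. The ubiquitin receptor PSMD4 averaged -0.13.

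The lid held the member with the smallest p. PSMD11 (chromosome 17, 30771397 to 30810337, GRCh37, plus strand), a scaffold subunit of the lid, was at 73.5 and 67.4 FPKM in A549 controls against 49.1 and 53.4 FPKM with siRNAs 28 and 30. In H2023 it was at 132 and 126 against 82.1 and 73.5 FPKM, and in H460 at 174 and 170 against 84.1 and 73.4 FPKM. The gap between the groups was wider than the spread within them in all 3 lines, and the siRNAs gave close values. The log2 fold change in A549 was -0.45 ± 0.13 (adjusted p = 0.264), that in H2023 -0.73 ± 0.15 (adjusted p = 0.119) and that in H460 -1.12 ± 0.21 (SE, adjusted p = 0.0267). The H460 call was lost without control library 0 or 1 (adjusted p = 0.222 and 0.173). Averaged over the lines the effect was -0.77 ± 0.08 (SE, adjusted p = 0.00022). The difference between lines had an unadjusted p of 0.0231 and an adjusted p of 0.162. PSMD7, the inactive partner of the deubiquitinase PSMD14, was at 110 and 97.6 against 86.7 and 84.3 FPKM in A549, 128 and 133 against 97.7 and 92.0 FPKM in H2023, and 120 and 117 against 67.8 and 56.7 FPKM in H460. Its average effect was -0.55 ± 0.08 (SE, adjusted p = 0.0013), and in H460 it was -0.92 ± 0.21 (SE, adjusted p = 0.0399), a call that was lost without control library 0 or 1 (adjusted p = 0.274 and 0.221). PSMD11 and PSMD7 kept the call of the average effect when each of the 12 libraries was left out in turn.

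PSMD12 also fell on average (-0.45 ± 0.14, SE, adjusted p = 0.0311), and it kept that call without the siRNA 28 library of any line or H2023 control library 1 and lost it without any 1 of the other 8 (adjusted p up to 0.0849) and without mitochondrial transcripts. The other 5 lid genes were not called. PSMD14, the deubiquitinase that removes ubiquitin chains, had -0.35 ± 0.17 (SE, adjusted p = 0.148), PSMD6 had -0.32 and PSMD3 had -0.23, while PSMD8 and PSMD13 had -0.04 and -0.03. None of the 3 chaperones of 19S assembly was called. PSMD9 was at 57.9 and 51.3 against 70.2 and 56.6 FPKM in A549, 84.3 and 68.5 against 58.6 and 53.3 FPKM in H2023, and 93.3 and 101 against 76.5 and 72.6 FPKM in H460. It was below control in H2023 and H460 and overlapped in A549 (average effect -0.20, adjusted p = 0.137). PSMD10, also known as gankyrin, overlapped in all 3 lines, at 48.9 and 39.9 against 60.6 and 46.1 FPKM in A549, 19.3 and 17.3 against 17.6 and 18.3 FPKM in H2023, and 31.8 and 34.6 against 32.2 and 34.1 FPKM in H460. PSMD5 had an average effect of -0.04.

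Among the activators and the inhibitor PSMF1, PSME1 rose and the other 4 genes were not called. PSME1 was at 64.8 and 57.4 FPKM in A549 controls against 76.6 and 74.5 FPKM with siRNAs 28 and 30, at 49.4 and 40.3 against 64.3 and 60.0 FPKM in H2023, and at 128 and 90.0 against 136 and 136 FPKM in H460. It was above control without overlap in each line, with log2 fold changes of 0.30, 0.47 and 0.34 and an average of 0.37 ± 0.11 (SE, adjusted p = 0.0246). That call was lost without either A549 siRNA library or control library 1 of A549, H2023 or H460 (adjusted p between 0.0528 and 0.0750). With no filter on low values PSME1 was not called on average either. Its partner PSME2 did not share the rise of PSME1 in all lines. PSME2 was at 82.3 and 80.7 against 107 and 90.3 FPKM in A549, 73.4 and 71.9 against 65.8 and 57.2 FPKM in H2023, and 87.0 and 75.7 against 73.9 and 71.9 FPKM in H460, with an average effect of -0.04. PSME1 per PSME2 was 0.787 and 0.711 against 0.717 and 0.825 in A549, 0.672 and 0.560 against 0.977 and 1.05 in H2023, and 1.47 and 1.19 against 1.84 and 1.90 in H460. The ratio was higher without overlap in H2023 and H460 and overlapped in A549. PSME2 has 6 named pseudogenes and PSME1 none. PSME4, the nuclear PA200 activator, was at 16.1 and 15.4 against 13.99 and 14.6 FPKM in A549, 12.8 and 10.97 against 9.14 and 12.4 FPKM in H2023, and 31.1 and 19.4 against 20.5 and 16.0 FPKM in H460. It overlapped in H2023 and H460 and averaged -0.23 (adjusted p = 0.234), PSME3, the nuclear PA28 gamma, averaged -0.07 and PSMF1 0.01. The genes of this group took 7.90% and 8.33% of the members' summed FPKM in A549 controls and 9.41% and 9.61% with NRF2 siRNA, 9.11% and 8.22% against 11.3% and 10.1% in H2023, and 13.4% and 10.4% against 14.1% and 14.9% in H460. That share was higher in every NRF2 siRNA library than in the controls of its line. In H460, where the members' sum was lower with NRF2 siRNA, the summed FPKM of the group itself overlapped, at 829 and 607 against 647 and 636, while in A549 it was 346 and 331 against 372 and 347 and in H2023 444 and 376 against 498 and 461.

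The libraries made with siRNA 28 and siRNA 30 were compared directly, without the controls that both share. Since siRNA and library number coincide, reagent and replicate cannot be told apart, and no test was run. In all 3 lines 14 members were lower and 5 higher with siRNA 30 than with siRNA 28, which is 29.8% and 10.6% of members, against 27.4% and 19.8% of all genes tested. PSMD6 had the largest mean difference, with log2 values of -0.45, -0.99 and -0.95 in A549, H2023 and H460. It was at 64.2, 44.9 and 58.3 FPKM with siRNA 28, within or above the range of the controls in A549 (61.9 and 56.0), H2023 (47.5 and 42.6) and H460 (50.2 and 57.2), and at 46.8, 22.2 and 29.6 FPKM with siRNA 30. PSMD14 had differences of -0.45, -0.53 and -0.91 and PSMB7 of -0.40, -0.69 and -1.20. In the other direction PSMC1 had 0.39, 0.74 and 0.58 and PSMB9 had 0.22, 0.24 and 0.73. Among the 5 members that kept the call of the average effect in all 12 fits without 1 library, PSMD11 differed between the siRNAs by 0.12, -0.16 and -0.19, PSMD7 by -0.04, -0.09 and -0.25, and PSMA5 by -0.19, -0.08 and -0.14. PSMA3 differed by -0.19, -0.20 and -0.46 and PSMA1 by -0.16, 0.51 and 0.14. The median over members was -0.10 with siRNA 28 and -0.21 with siRNA 30 in A549 against the mean of the shared controls, -0.05 and -0.08 in H2023, and -0.35 and -0.41 in H460.

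**Figure D5:**
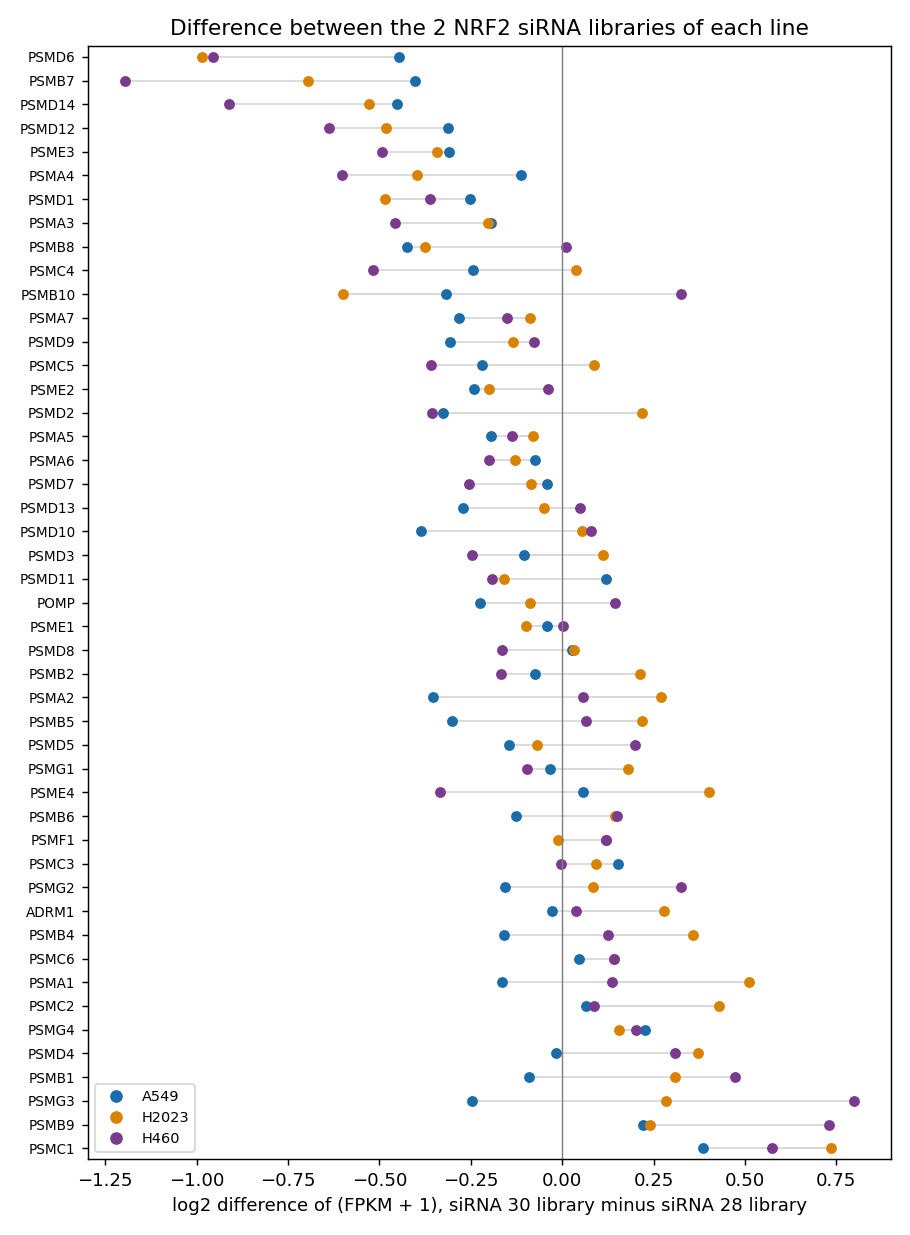
Log2 difference of FPKM + 1 between the siRNA 30 and the siRNA 28 library (horizontal axis) for the 47 members tested, ordered by the mean over lines, in A549, H2023 and H460 (coloured points). PSMD6, PSMB7, PSMD14 and PSMD12 lie left of 0 in all lines and PSMC1 and PSMB9 right of 0.

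Other genes around the proteasome were taken from fixed lists. Of 12 proteasome-associated genes outside the rule, 6 fell on average and 0 rose, where 14.5% of all genes fell and 15.2% rose. The 6 that fell were UCHL5, TXNL1, AKIRIN2, PITHD1, USP14 and ECPAS. UCHL5, a deubiquitinase bound to ADRM1, was at 31.1 and 27.0 against 26.4 and 25.8 FPKM in A549, 49.1 and 46.2 against 42.7 and 46.8 FPKM in H2023, and 150 and 145 against 54.6 and 59.4 FPKM in H460. In H460 both NRF2 siRNA libraries were far below control, and the effect differed between lines (adjusted p = 0.0226). That call was lost without any 1 A549 library, H2023 control library or H460 control library (adjusted p between 0.0611 and 0.0959). TXNL1, a redox protein of the 19S particle, was at 57.2 and 49.2 against 42.4 and 42.5 FPKM in A549, 75.7 and 71.8 against 58.7 and 59.0 FPKM in H2023, and 109 and 96.6 against 68.3 and 65.9 FPKM in H460. It was lower without overlap in each line and fell on average by 0.41 (-0.41 ± 0.08, SE, adjusted p = 0.0047). AKIRIN2, the factor for nuclear import of proteasomes, fell by 0.57 (adjusted p = 0.00539).

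Of 10 ubiquitin shuttle and segregase genes 4 fell on average and 0 rose, where 14.5% of all genes fell and 15.2% rose. SQSTM1, an autophagy receptor and known NRF2 target, was at 642 and 656 against 136 and 124 FPKM in A549, 897 and 708 against 265 and 161 FPKM in H2023, and 1392 and 1127 against 301 and 137 FPKM in H460, an average of -2.29 ± 0.20 (SE, adjusted p = 5.54e-05). RAD23B, which carries ubiquitinated proteins to the proteasome, was at 153 and 136 against 105 and 108 FPKM in A549, 209 and 195 against 192 and 170 FPKM in H2023, and 358 and 285 against 139 and 125 FPKM in H460. It was lower without overlap in each line (average -0.62 ± 0.09, SE, adjusted p = 0.00119). The segregase VCP fell by 0.49 (adjusted p = 0.00275). Of 6 ubiquitin genes and E1 enzymes 1 fell and 1 rose on average (16.7% each), near the shares of all genes (14.5% and 15.2%). UBA1, the main E1 enzyme, rose by 0.33 (adjusted p = 0.0149), a call that was lost without A549 control library 1 (adjusted p = 0.0525).

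Of the 8 tested genes of the NRF1 pathway none was called on average by the values as deposited, with an adjusted p of 0.0586 or more, and 3 were higher at an unadjusted p under 0.05. NFE2L1 itself was at 70.9 and 62.2 against 65.0 and 66.7 FPKM in A549, 219 and 255 against 263 and 292 FPKM in H2023, and 380 and 242 against 433 and 486 FPKM in H460. It overlapped in A549 and lay above control in H2023 and H460, with an average effect of 0.27 ± 0.12 (SE, adjusted p = 0.114). SYVN1 and BTRC, ubiquitin ligases that act on NRF1, had average effects of 0.34 and 0.49 (adjusted p = 0.0586 and 0.0588). Without mitochondrial transcripts NFE2L1, SYVN1 and BTRC were called higher (adjusted p = 0.0434, 0.0163 and 0.0282). By median-of-ratios scaling SYVN1 and BTRC were (adjusted p = 0.0464 and 0.0496), and without H460 control library 0 NFE2L1 and SYVN1 were (adjusted p = 0.0235 and 0.0213). SYVN1 was also called without the H2023 siRNA 30 library (adjusted p = 0.0318), and BTRC without the siRNA 30 library of any line or H460 control library 1 (adjusted p between 0.0265 and 0.0491).

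For scale, all 18 canonical NRF2 target genes fell on average, with a median of -2.47, and in single lines 16, 14 and 17 of 18 were called lower in A549, H2023 and H460. Of all genes, 0 and 12 were called in H2023 without control library 0 and 1, and 0 and 5 in H460, and GCLM then had an adjusted p of 0.0776 and 0.0586 in H2023 and 0.0620 and 0.0614 in H460. On average GCLM fell by 3.29 (adjusted p = 6.81e-08). The median of the proteasome members was -0.23 on the same scale. Of 12 interferon gamma and antigen presentation genes, 7 rose on average and 0 fell, with a list median of 0.46, where 15.2% of all genes rose. Among those that rose were TAP1 and TAPBP, which load peptides onto class I molecules, and HLA-B, HLA-C and B2M, which encode chains of those molecules. HLA-B rose by 1.19 ± 0.18 and HLA-C by 0.92 ± 0.13 (SE, adjusted p = 0.00132 and 0.000863). In H460 4 of the 12 were called higher, where 7.12% of all genes were, and in A549 and H2023 0 were. At an unadjusted p under 0.05, 1, 4 and 6 were higher in A549, H2023 and H460 and 0, 0 and 1 lower, the last being TAP2 (-0.66). The H460 calls of HLA-B and HLA-C were lost without control library 0 (adjusted p = 0.143 and 0.187) or 1 (adjusted p = 0.118 and 0.157). These genes are given beside PSMB8, PSMB9 and PSME1, and their part in those values was not tested.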

How the data were processed

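RNA from the 3 cell lines was sequenced in 12 strand-specific libraries. For each library the authors deposited FPKM values of 57815 genes. The study's methods name TopHat and Cufflinks with hg19, whereas the submitters' processing notes name STAR 2.5.3a, Cuffnorm and HTSeq, so the exact chain behind the files is uncertain. Reads of similar genes can be split between copies, and 17 members have a named pseudogene. The authors' DESeq2 tables (mean normalised count, log2 fold change with standard error, test statistic and p-values) hold their own comparisons and were not used. Depth within a line, estimated from the steps between low FPKM values, was 92.7% to 107% of the first control library.

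Identifiers were matched without version to GENCODE lifted to GRCh37 (96.1% matched). PSMB3 had no matching identifier and was not analysed here. A total of 12710 values under 1e-06 were set to 0. Values were tested as log2(FPKM + 1) with limma 3.58.1 (R 4.3.3) and a prior variance that follows mean expression. The pseudocount of 1 understates changes of low genes. Each line was fitted on genes at 1 FPKM or more in at least 2 of 4 libraries (2 residual degrees of freedom). The average effect and the F test of differences between lines came from 1 fit of 12 libraries with 6 group means (6 residual degrees of freedom), on genes that passed in every line. Tests of fold changes were two-sided, and p-values were adjusted by Benjamini-Hochberg over all genes tested with a threshold of 0.05. The code was tested on simulated data. Python 3.11.15, pandas 2.3.3 and matplotlib 3.10.9 were used for tables and plots.

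Per-library values were given for the 2 members of each subcomplex with the smallest p of the average effect, the catalytic subunits and their immune counterparts, POMP, members that differed between lines and up to 2 genes of each other list. PSMD2, PSMD6 and PSME2 were added after their values were seen. Some genes of these lists are not reported here. The members and lists were chosen with earlier results of these data known. Alternatives were another pseudocount, other filters, no trend, other scalings, weights per line, a replicate block and leaving out each library.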

Additional observations from a re-analysis of the deposited data

Results flagged for a closer look

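The effect of NRF2 siRNA on PSMG1 differed between the lines in the F test of limma over all genes (adjusted p = 0.0192). Its log2 fold change in A549, H2023 and H460 was -0.11, 0.40 and -1.21, and both NRF2 siRNA libraries lay on the given side of both controls in each line. The same test was met by UCHL5, a deubiquitinase of the 19S particle outside the rule for members (adjusted p = 0.0226), with -0.14, -0.09 and -1.36. The adjusted p was 0.05 or more without any 1 of 5 libraries for PSMG1 (up to 0.0903) and without any 1 of 8 for UCHL5 (up to 0.0959), in each case including H460 control library 0, which gave the highest value. By this test 2.51% of all genes differed between lines, and without H460 control library 0 the number of genes that did was 3. The mitochondrial share of the FPKM sum was 8.56% and 13.1% in H460 controls against 20.8% and 26.0% with NRF2 siRNA, and without mitochondrial transcripts the difference for PSMG1 had an adjusted p of 0.0207 and that for UCHL5 of 0.0369.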

How the results depend on the processing

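Precision was limited by 2 libraries per group, which left 2 residual degrees of freedom per line, and by the spread of H460. For the genes named by rule, the average effects and the calls in single lines were recomputed, none of which reversed, and over all alternatives 824 were on the same side of the threshold, 128 were no longer past it and 16 were newly past it. Leaving out mitochondrial transcripts moved the medians of the members to -0.059 in H2023, -0.19 in H460 and -0.13 on average, turned the log2 ratio of summed FPKM in H2023 to 0.018, moved that in H460 to -0.22, and left 2 members called lower in H460 and 7 on average. Members below 0 then numbered 25 rather than 29 in H2023, 35 rather than 44 in H460 and 33 rather than 40 on average, so effects of other members did change sign. Median-of-ratios scaling gave a median of -0.39 in H460. With no filter on low values 0 members were called lower in H460, where 0 of all genes were called, and 0 higher on average, where 5.46% of all genes were. With no trend 2 were called lower in H460, where 5.91% of all genes were, and with line effects from 1 fit of 12 libraries 1 was lower in H2023 and 16 in H460, where 2.17% and 16.8% of all genes were. Leaving out 1 library at a time gave medians from -0.22 to -0.0903 in A549, from -0.19 to -0.049 in H2023 and from -0.43 to -0.35 in H460. The members called lower then ranged from 0 to 4 in H2023, 0 to 13 in H460 and 5 to 16 on average, where all genes called lower ranged from 0 to 5.91%, 0 to 13.7% and 8.96% to 17.1%. Those called higher on average ranged from 0 to 3, where all genes ranged from 9.94% to 16.4%, and those that differed between lines from 0 to 1.

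The replicate numbers were not taken as pairs, since not every line showed a shared deviation: the correlation of same-numbered deviations from the group means in A549, H2023 and H460 was -0.03, 0.31 and 0.16. With the replicate block 1 member was called lower in H2023 and 9 in H460, where 2.12% and 11.4% of all genes were, and on average 14 lower and 3 higher, where 15.2% of all genes were lower, and the difference between lines had an adjusted p of 0.0590 for UCHL5 and 0.0496 for PSMG1. Where a change of a count under an alternative is given without a reason, the cause was not tested.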
